A study of Homo sapiens with 8 samples.

Results

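The 37 genes described here belong to the interferon response and to the sensing of nucleic acids. They were chosen by name, and each name was matched to a row of the table of gene values. All 37 were found among the 61906 genes listed. They comprise a receptor chain and transcription factors, sensors and relay proteins, enzymes that act on nucleic acids, and genes that interferon induces. RNAseq had been performed on U251 cells, a human glioblastoma cell line labelled WT (wild type), which served as a single-line model without immune cells or other tissue. The cells received either the solvent DMSO (vehicle) or 100 nM LLY-283 over 24 h, with 4 biological replicates per group and 8 libraries in all. LLY-283 inhibits PRMT5, the methyltransferase that makes symmetric dimethylarginine in proteins. The labels do not say whether replicates came from separate days, so p-values measure the spread between these libraries.

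Type I interferons are secreted proteins that bind a receptor made of IFNAR1 and IFNAR2. The receptor activates STAT2, which joins IRF9 in the factor ISGF3. ISGF3 binds the interferon-stimulated response element (ISRE) in the promoters of interferon-induced genes, and the proteins made from them restrict viruses. Upstream of interferon, RNA in the cytoplasm is sensed by RIG-I and MDA5 (encoded by IFIH1), which signal through MAVS, and DNA by cGAS, which signals through STING. Both routes use the kinase TBK1 to activate IRF3. Tumor cells can express some of these genes without added interferon, and PRMT5 is known for its action on splicing factors, histones and other proteins.

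Values were in TPM, a unit in which the reads of a gene are divided by transcript length and scaled so that every library has the same total. The depth of the libraries is unknown, because TPM keeps no record of read number. A gene was tested when its mean over the 8 libraries was at least 1 TPM, and 14478 genes passed this filter. PRMT5 itself had 100.0 ± 5.03 TPM with vehicle and 100.4 ± 4.91 TPM with LLY-283 (SD, n = 4 each). Of 8 astrocytic glioma markers, 7 were above the filter, among them VIM at 4301 TPM with vehicle and 4121 TPM with LLY-283, whereas AQP4 did not exceed 0.09 TPM. GFAP (809.5 to 679.9 TPM), NES (482.8 to 428.8 TPM) and SOX2 (103.3 to 85.6 TPM) fell and CD44 (1576 to 1700 TPM) rose, each without overlap, and their part in the results below was not tested. Markers of leukocytes were near 0, with a sum over 8 genes of 1.54 to 3.22 TPM in vehicle and 1.46 to 2.61 TPM in LLY-283 libraries, most of it from CD68. PTPRC, the marker of all leukocytes, was listed at 0.04, 0.01, 0 and 0 TPM with vehicle and at 0 in the 4 LLY-283 libraries. Markers of endothelial cells summed to 2.40 to 2.93 TPM with vehicle and 2.06 to 2.83 TPM with LLY-283. LLY-283 replicate 4 stood apart from the other libraries in its share of mitochondrial transcripts, which was 7.19% of its TPM where the next lowest share was 10.2%. Calls that depend on this library are given with and without it.

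Of the 37 genes, 32 had a mean of at least 1 TPM and were tested. Among these 32, 10 genes fell and 22 did not pass the threshold, while none rose (limma on log2(TPM + 0.1), adjusted p under 0.05 over all genes tested). The genes that fell were IFI44L, IFI35, TREX1, PARP9, MAVS, MX1, IFI44, SAMHD1, IRF3 and BST2. They made up 31.2% of the members tested, where 17.6% of all genes tested fell. The share that rose was 0 of 32, where 8.61% of all genes rose, and at an unadjusted p under 0.05 only TBK1 was higher while 16 members were lower, where 13.2% and 25.4% of all genes were. With all 8 libraries, none of the 32 changed more than 1.5-fold (IFI35, IFI44L and TREX1 did without LLY-283 replicate 4, as given below). Of all genes tested, 3.48% fell and 0.394% rose past both this size and the threshold on adjusted p. The median log2 fold change of the 32 genes was -0.14, against -0.047 for all genes tested, and 25 of the 32 (78.1%) had a lower fitted value, as did 60.2% of all genes. Rescaling moved these values. After quantile normalization the member median was -0.074 against 0.014 for all genes. There 8 members fell and 0 rose, beside 1820 and 1871 of all genes. With median-of-ratios scaling the medians were -0.0949 and -0.0022, and 6 of the 32 members fell and 1 rose, beside 1866 and 1927 of the 14478 genes. Because the genes were chosen with earlier results known, these shares describe the list and were not tested. In bulk RNA, fewer cells that express a gene and less RNA per cell cannot be told apart.

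**Figure D1:**
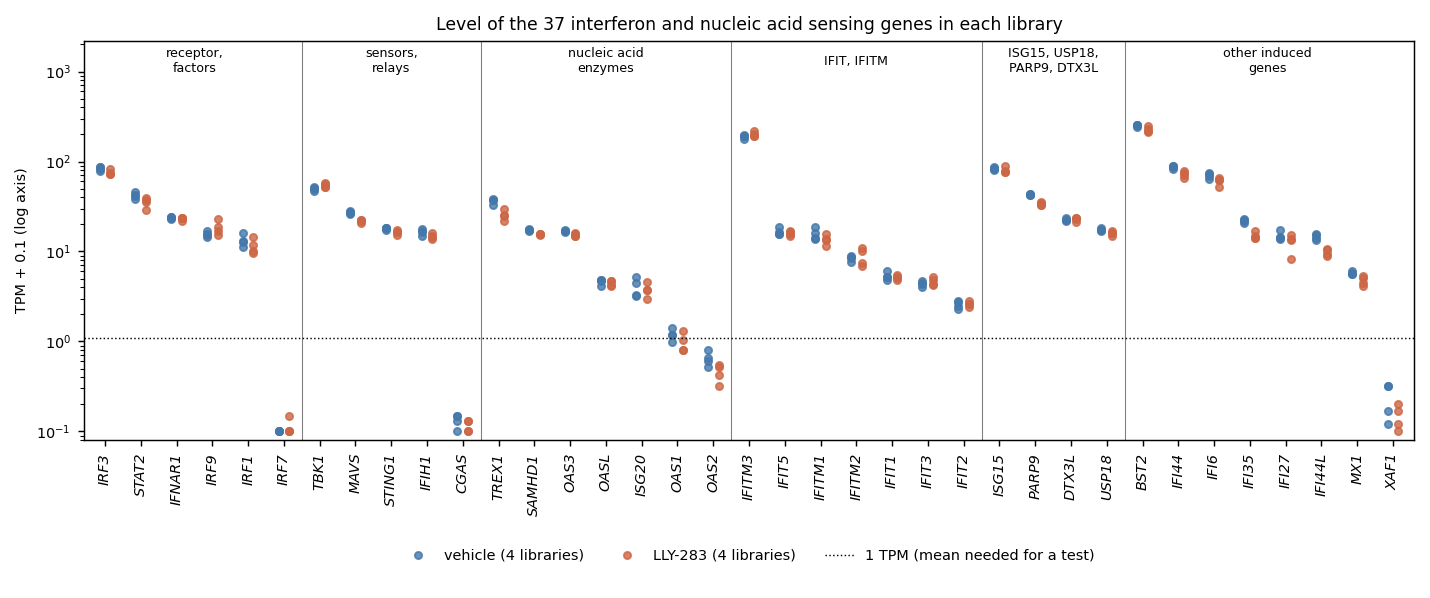
TPM + 0.1 on a log axis for all 37 genes in each of the 8 libraries, ordered by role, with vehicle libraries in blue and LLY-283 libraries in orange. Levels ran from 0 TPM for IRF7 with vehicle to a vehicle mean of 250.6 TPM for BST2. In all, 5 genes lay under a mean of 1 TPM over the 8 libraries.

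The groups did not overlap for 9 members that were lower and for 1 that was higher, TBK1. Over all genes tested, 19.6% were lower and 9.63% higher without overlap. Of the calls, IFI44L, IFI35, TREX1, PARP9, MAVS and IFI44 (6 genes) also passed the threshold under each of 21 alternative fits. With all 8 libraries, none of the 10 passed when a change above 1.5-fold (0.585 on the log2 scale) was also required. Without LLY-283 replicate 4, IFI35 (-0.609), IFI44L (-0.602) and TREX1 (-0.601) did. IFI44L also did without vehicle replicate 2 (-0.607) or LLY-283 replicate 1 (-0.5853). The share of all genes past this size was not counted without those libraries. The calls of MX1, IRF3 and BST2 lay close to the threshold, with adjusted p-values of 0.0491, 0.0491 and 0.0444, and were lost under 18, 14 and 10 of the 21 fits. That of SAMHD1 was lost under 2 fits, both of which rescaled the libraries. With LLY-283 replicate 4 left out, 11 members fell and 1 rose, while over all genes 2659 fell and 1508 rose, against 2541 and 1247 with it. The plot of changes by role shows these fits with their intervals.

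**Figure D2:**
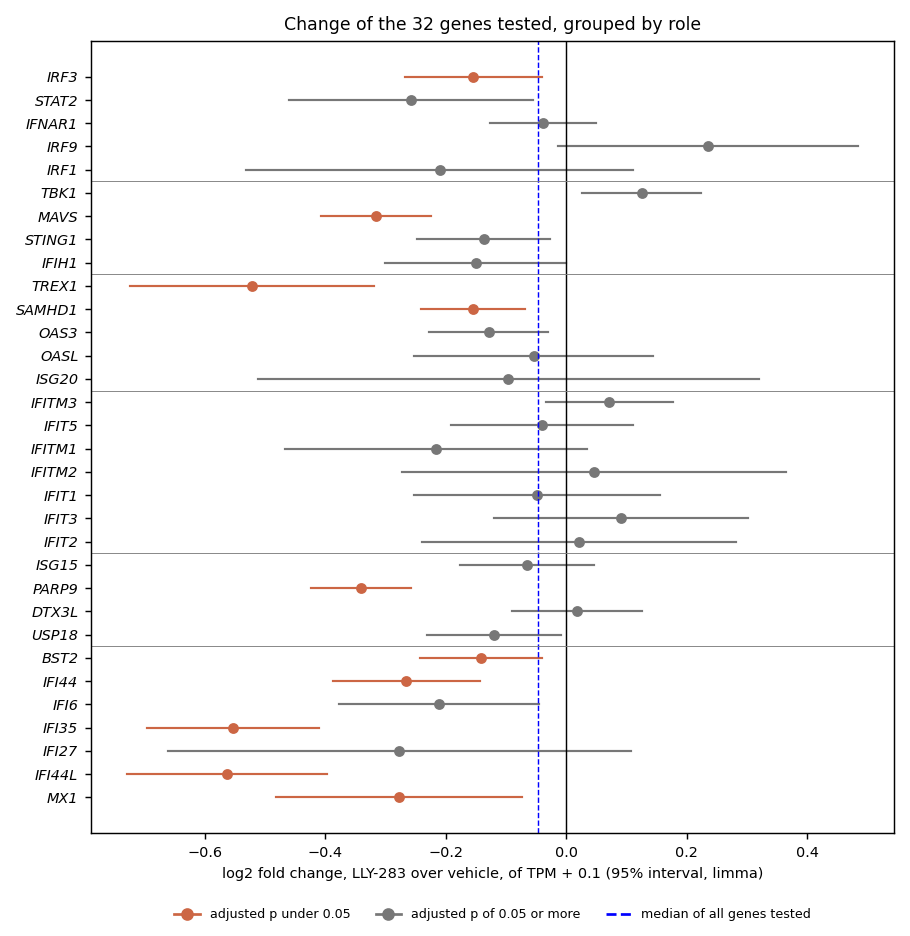
Log2 fold change of TPM + 0.1 (LLY-283 over vehicle) for the 32 genes tested, with the 95% interval of the fit, grouped by role. The 10 genes with an adjusted p under 0.05 are in orange and all lie to the left of 0, from -0.56 (IFI44L) to -0.14 (BST2); the dashed line is the median of all genes tested, -0.047.

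The promoters of the members were searched for the core letters of the ISRE, GAAANNGAAA, on both strands, in the window from 250 bases before to 50 bases after each RefSeq start (GRCh38.p14). Windows were found for 28 of the 37 genes. The letters were present in at least 1 window of 17 of these 28 genes (60.7%). Among all 27305 symbols with a window, 4.38% held them. They were present in 5 of 9 members that fell (IFI44L, IFI44, PARP9, BST2 and MX1) and in 12 of 17 that did not pass the test. A match describes the sequence and does not show binding. The windows below are shown because they let the promoters of genes that fell be read beside those that did not pass the test. Each has 30 bases, written on the strand on which the motif reads GAAANNGAAA, with the motif or overlapping motifs in capitals. The first 4 lines belong to genes that fell and the last 4 to genes that did not pass, and the window of PARP9 is also that of DTX3L, which did not pass.
IFI44L, chr1:78620365-78620394, + strand: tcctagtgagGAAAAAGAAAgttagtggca
PARP9 and DTX3L, chr3:122564322-122564351, + strand: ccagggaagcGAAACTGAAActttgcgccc
BST2, chr19:17405738-17405767, - strand: tttctggGAAACTGAAACTGAAAacctaat
MX1, chr21:41420559-41420588, + strand: gagcagaaatGAAACCGAAActgaattgtc
ISG15, chr1:1013377-1013406, + strand: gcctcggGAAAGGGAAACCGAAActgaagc
IFIT1, chr10:89392497-89392526, - strand: accgaaagggGAAAGTGAAActaaagctag
IFITM3, chr11:320876-320905, - strand: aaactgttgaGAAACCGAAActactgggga
OAS3, chr12:112938452-112938481, + strand: agccgggcggGAAAACGAAAccagaaatcc

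The same 30 bases occur a second time upstream of IFI44L, at chr1:78620274-78620303. BST2 and ISG15 each hold overlapping motifs that make a block of 16 bases, starting 130 and 113 bases before the RefSeq start. The 250 bases upstream of IFI44, a gene that fell, and of ISG15, a gene that did not pass the test, are given in full on the strand of the gene, with motifs on either strand in capitals.
IFI44, chr1:78649539-78649788, + strand: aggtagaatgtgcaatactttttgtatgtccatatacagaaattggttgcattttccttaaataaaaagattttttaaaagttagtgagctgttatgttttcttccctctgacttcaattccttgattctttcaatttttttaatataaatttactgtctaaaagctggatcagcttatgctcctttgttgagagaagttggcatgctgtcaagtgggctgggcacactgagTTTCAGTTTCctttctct
ISG15, chr1:1013247-1013496, + strand: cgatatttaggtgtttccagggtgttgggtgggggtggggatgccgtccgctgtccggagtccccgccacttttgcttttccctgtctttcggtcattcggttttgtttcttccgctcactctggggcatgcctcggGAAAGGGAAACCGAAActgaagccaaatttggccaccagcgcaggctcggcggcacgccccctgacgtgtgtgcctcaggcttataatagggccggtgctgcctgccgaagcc

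Among the receptor and the transcription factors, 1 of 5 genes tested fell and none rose, where 17.6% of all genes fell and 8.61% rose. The 1 call, that of IRF3, was lost under 14 of the 21 fits. IFNAR1 (chromosome 21, 33324387 to 33359864 of GRCh38), a chain of the type I receptor, had 23.85, 23.77, 23.44 and 23.01 TPM with vehicle and 23.51, 23.18, 23.23 and 21.66 TPM with LLY-283. The groups overlapped, and the log2 fold change of -0.039 (95% interval -0.13 to 0.049) did not pass the test (adjusted p = 0.497); it was -0.013 without LLY-283 replicate 4 and turned in sign with both rescalings. IRF3 (chromosome 19, 49659569 to 49665875), the factor that TBK1 activates, had 78.03, 83.45, 86.52 and 87.80 TPM with vehicle and 73.44, 81.91, 74.35 and 72.08 TPM with LLY-283. LLY-283 replicate 2 lay within the vehicle range and the other 3 below it. IRF3 fell by 0.15 on the log2 scale (standard error 0.050, adjusted p = 0.0491), and the call was lost when vehicle replicates 2, 3 or 4 or LLY-283 replicates 1, 3 or 4 were left out, with adjusted p-values over all alternatives of 0.0202 to 0.128. It overlaps BCL2L12 on the opposite strand, a gene that had 48.8 ± 2.35 TPM with vehicle and 44.7 ± 1.39 TPM with LLY-283 (SD, n = 4 each, adjusted p = 0.0566).

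STAT2 and IRF9, partners in ISGF3, had fitted changes of opposite sign. STAT2 (chromosome 12, 56341597 to 56360203) had 37.95, 42.04, 45.51 and 41.73 TPM with vehicle and 37.28, 39.07, 34.95 and 29.06 TPM with LLY-283. Its log2 fold change was -0.26 (adjusted p = 0.0612), and it was -0.17 without LLY-283 replicate 4, the lowest library (adjusted p = 0.0847). It passed the threshold without LLY-283 replicate 2 (adjusted p = 0.0479). IRF9 (chromosome 14, 24161234 to 24168043) had 16.61, 15.53, 14.98 and 14.38 TPM with vehicle and 22.62, 16.99, 18.61 and 14.95 TPM with LLY-283. In 3 of the 4 LLY-283 libraries it was above the whole vehicle range, with replicate 1 highest, and the log2 fold change was 0.23 (adjusted p = 0.152). Without LLY-283 replicate 4 that change was 0.33 (adjusted p = 0.0397), and without LLY-283 replicate 1 it was 0.13 (adjusted p = 0.305). IRF9 lies on the same strand as the overlapping protein-coding gene ENSG00000259529, between which RSEM may divide reads, and that gene had 3.20 ± 0.668 TPM with vehicle and 4.29 ± 0.479 TPM with LLY-283 (SD, n = 4 each).

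The log2 ratio of STAT2 to IRF9 within a library was 1.44 ± 0.180 with vehicle and 0.94 ± 0.197 with LLY-283 (SD, n = 4 each). The difference was -0.49, with 1 LLY-283 library just inside the vehicle range. This pair and those below were chosen after their values were seen. Their ratios were also tested, but a p-value means little for pairs chosen in this way. The ratios are therefore given as a description only. IRF1 (chromosome 5, 132440440 to 132508719), a factor also induced by interferon gamma, ranged from 11.22 to 15.84 TPM with vehicle and from 9.43 to 14.54 TPM with LLY-283 (log2 fold change -0.21, adjusted p = 0.312, and -0.13 without LLY-283 replicate 4). IRF7 (chromosome 11, 612553 to 615983), which amplifies interferon production, was listed at 0 in 7 libraries and at 0.05 TPM in LLY-283 replicate 4, and was not tested.

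**Figure D3:**
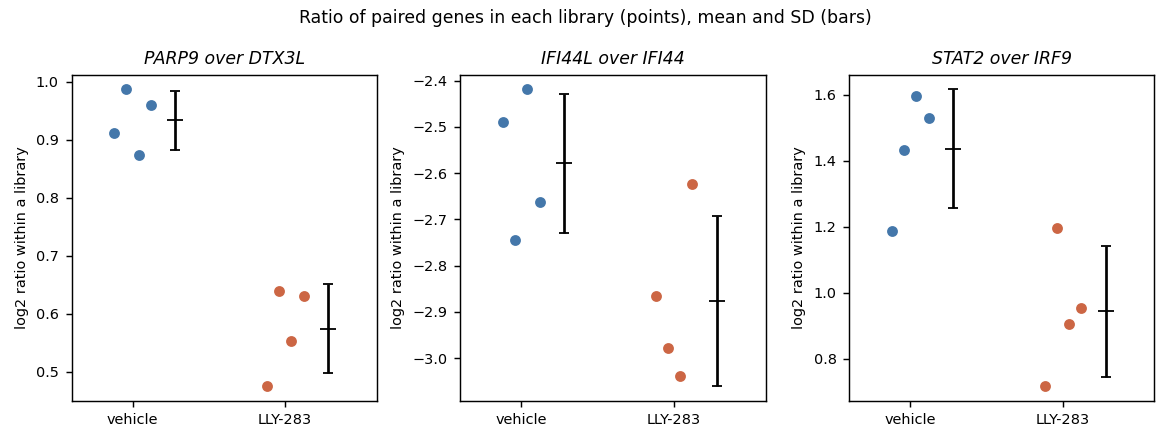
Log2 ratio of TPM + 0.1 between paired genes within each library (points), with the mean and SD of each group of 4 (bars). The vehicle and LLY-283 ratios of PARP9 to DTX3L do not overlap, whereas those of IFI44L to IFI44 and of STAT2 to IRF9 do.

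Among the 4 sensors and relays tested, MAVS fell and no other gene passed the test, where 17.6% of all genes tested fell. MAVS (ENSG00000088888, chromosome 20, 3846799 to 3876123), the adaptor of the RNA sensors on mitochondria, had 27.30, 26.18, 28.23 and 26.98 TPM with vehicle and 22.46, 21.78, 22.21 and 20.81 TPM with LLY-283. Every LLY-283 library lay below every vehicle library. MAVS fell by 0.32 on the log2 scale (standard error 0.041, adjusted p = 0.000702), that is by 19.6%, and omitting single libraries gave log2 fold changes of -0.33 to -0.29. TBK1 (chromosome 12, 64452090 to 64502114), the kinase of both sensing routes, was the only member whose LLY-283 libraries all lay above the vehicle libraries. It had 51.36, 49.10, 51.04 and 46.90 TPM with vehicle and 55.51, 52.36, 51.62 and 56.91 TPM with LLY-283. Its log2 fold change of 0.12 did not pass (adjusted p = 0.0639), but with median-of-ratios scaling it was 0.17 (adjusted p = 0.0246).

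STING1 (chromosome 5, 139475533 to 139482935), the adaptor of DNA sensing, had 17.13, 17.95, 18.05 and 18.09 TPM with vehicle and 16.18, 16.18, 17.28 and 15.13 TPM with LLY-283. LLY-283 replicate 3 lay within the vehicle range and the other 3 libraries below it. The log2 fold change was -0.14 (adjusted p = 0.0656), and it passed the threshold without LLY-283 replicate 3 (log2 fold change -0.17, adjusted p = 0.0402). CGAS (chromosome 6, 73413515 to 73452297), the DNA sensor itself, was almost absent from the libraries. It was listed at 0.05, 0.00, 0.03 and 0.05 TPM with vehicle and at 0.03, 0.03, 0.00 and 0.00 TPM with LLY-283, and was not tested. IFIH1 (chromosome 2, 162267074 to 162318684), which encodes the RNA sensor MDA5, had 17.47, 14.72, 16.70 and 16.37 TPM with vehicle and 15.96, 14.83, 13.61 and 14.34 TPM with LLY-283. The groups overlapped, and the log2 fold change of -0.15 did not pass (adjusted p = 0.128).

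Of the 7 genes for enzymes that act on nucleic acids, 5 were tested and 2 fell, where 17.6% of all genes tested fell. TREX1 (ENSG00000213689, chromosome 3, 48465811 to 48467645), an exonuclease that degrades DNA in the cytoplasm, had 32.37, 37.64, 38.39 and 36.78 TPM with vehicle and 25.43, 21.74, 24.54 and 29.68 TPM with LLY-283. The groups did not overlap, and LLY-283 replicate 4 lay nearest to the vehicle libraries. TREX1 fell by 0.52 on the log2 scale (standard error 0.090, adjusted p = 0.00311), or by 30.4%, and by 0.60 without that library. TREX1 lies within ATRIP on the same strand, so that the estimate depends on how RSEM divided reads between them. ATRIP, which encodes the partner of the checkpoint kinase ATR, had 9.47, 9.74, 10.62 and 8.70 TPM with vehicle and 12.08, 12.96, 11.75 and 10.81 TPM with LLY-283, and rose by 0.30 on the log2 scale (adjusted p = 0.0172). The sum of both genes was 41.84, 47.38, 49.01 and 45.48 TPM with vehicle and 37.51, 34.70, 36.29 and 40.49 TPM with LLY-283. The summed values did not overlap between the groups and were lower with LLY-283. TPM is divided by transcript length, so reads moved between genes of unlike length can change this sum. The sum therefore cannot show how reads were divided, and that division was not tested. ATRIP and the sum were examined after the values were seen.

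SAMHD1 (ENSG00000101347, chromosome 20, 36890229 to 36951893), which hydrolyzes deoxynucleotides, had 17.32, 17.03, 17.59 and 16.76 TPM with vehicle and 15.13, 15.72, 15.36 and 15.45 TPM with LLY-283. The groups were separated by about 1 TPM with little spread within either. SAMHD1 fell by 0.15 on the log2 scale (standard error 0.038, adjusted p = 0.0165), and the call was lost after quantile normalization (adjusted p = 0.129) and after scaling by median of ratios (adjusted p = 0.0589). The genes of the OAS cluster on chromosome 12 encode synthetases of 2',5'-oligoadenylate, which activates an RNase. OAS3 ranged from 16.50 to 17.16 TPM with vehicle and from 14.82 to 16.13 TPM with LLY-283, without overlap, but did not pass the test (log2 fold change -0.13, adjusted p = 0.0574), though it passed under 3 of the 21 fits, among them that without LLY-283 replicate 1 (adjusted p = 0.0476). OAS1 had 1.09, 1.09, 1.3 and 0.89 TPM with vehicle and 1.19, 0.95, 0.71 and 0.71 TPM with LLY-283, and OAS2 ranged from 0.42 to 0.71 TPM and from 0.22 to 0.45 TPM. Neither reached a mean of 1 TPM over the 8 libraries, and neither was tested. OASL, a relative of the synthetases, and the exonuclease gene ISG20 lay between 2.85 and 5.09 TPM in all libraries, with log2 fold changes of -0.054 and -0.10 that did not pass (adjusted p = 0.687 and 0.737). The heat map of each library against the vehicle mean shows how far single libraries carried these values.

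**Figure D4:**
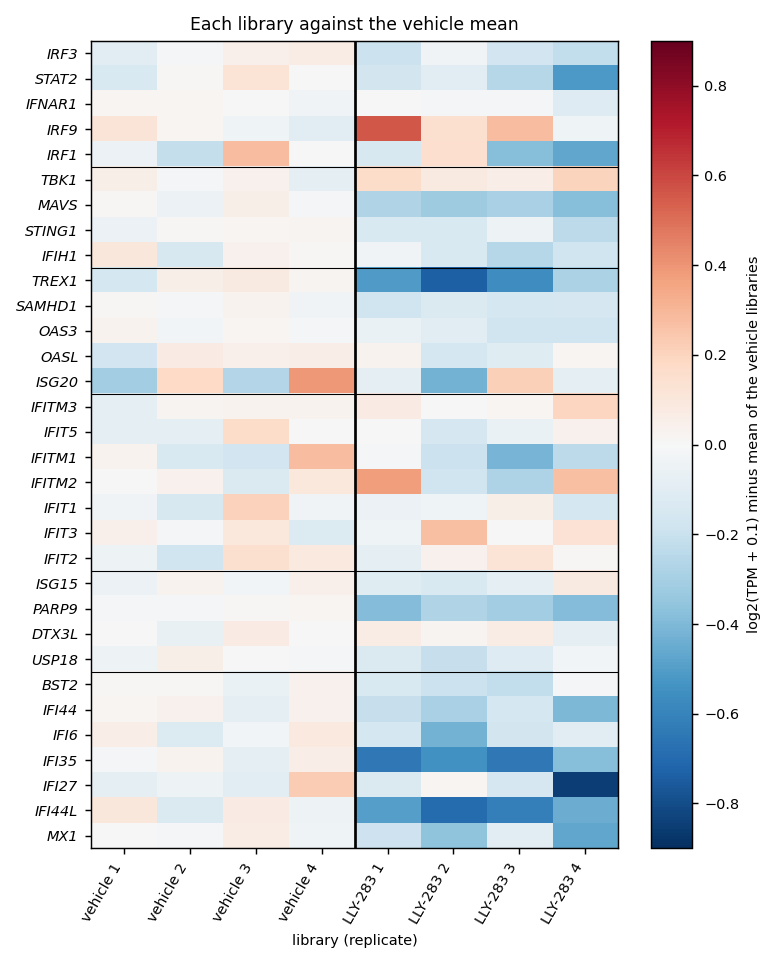
Difference of log2(TPM + 0.1) from the mean of the vehicle libraries for the 32 genes tested (rows, by role) in the 8 libraries (columns); blue is lower and red is higher. IFI35, IFI44L, TREX1, MAVS and PARP9 are lower in each of the 4 LLY-283 libraries, whereas the low value of IFI27 comes from LLY-283 replicate 4, with 8.17 TPM.

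None of the 7 genes of the IFIT and IFITM families passed the test in either direction, where 17.6% of all genes fell and 8.61% rose. Log2 fold changes ran from -0.22 (IFITM1) to 0.090 (IFIT3). Both ends moved with single libraries. IFITM1 ran from -0.28 without LLY-283 replicate 1 to -0.12 without vehicle replicate 4. IFIT3 ran from 0.031 without LLY-283 replicate 2 to 0.13 without LLY-283 replicate 1. Under quantile normalization IFIT3 was at 0.26 (adjusted p = 0.0791) and IFIT2 at 0.19 (adjusted p = 0.240). IFIT proteins bind foreign RNA and their genes lie together on chromosome 10, while IFITM proteins sit in membranes and block the entry of viruses, and their genes lie together on chromosome 11. IFIT1 (ENSG00000185745, chromosome 10, 89392546 to 89406487) had 5.10, 4.71, 6.04 and 5.11 TPM with vehicle and 5.02, 5.08, 5.42 and 4.67 TPM with LLY-283. The values interleaved, with a log2 fold change of -0.049 (95% interval -0.25 to 0.16, adjusted p = 0.728) whose sign turned under quantile normalization (0.099) and without vehicle replicate 3 (0.020), and which was -0.013 without LLY-283 replicate 4. IFIT2 had vehicle and LLY-283 means of 2.48 and 2.52 TPM, IFIT3 4.26 and 4.55 TPM, and IFIT5 16.4 and 15.9 TPM. IFITM3 (ENSG00000142089, chromosome 11, 319676 to 329475) had 179.53, 193.79, 194.30 and 194.92 TPM with vehicle and 200.49, 189.92, 193.24 and 218.10 TPM with LLY-283. Its log2 fold change of 0.071 (95% interval -0.034 to 0.18) did not pass (adjusted p = 0.297), and it was 0.030 without LLY-283 replicate 4. IFITM1 and IFITM2, close relatives of IFITM3 between which reads may be divided, had vehicle means of 15.6 and 8.36 TPM and LLY-283 means of 13.4 and 8.78 TPM (adjusted p = 0.186 and 0.841). Without LLY-283 replicate 4 the fitted change of IFITM2 turned from 0.046 to -0.028, and that of IFIT5 went from -0.041 to -0.069.

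PARP9 and DTX3L encode proteins that form a complex, an ADP-ribosyltransferase relative and a ubiquitin ligase. Their genes start 5' end to 5' end on opposite strands of chromosome 3 and overlap by 240 bases (PARP9, 122527924 to 122564577, and DTX3L, 122564338 to 122575203). The ISRE letters printed above begin 6 bases before the RefSeq start of DTX3L, at the edge of this overlap. The window at the other RefSeq start of PARP9 did not hold them. PARP9 had 42.52, 42.75, 43.47 and 43.73 TPM with vehicle and 32.83, 35.73, 34.67 and 32.94 TPM with LLY-283. The groups did not overlap, and PARP9 fell by 0.34 on the log2 scale (standard error 0.037, adjusted p = 0.000322), or by 21.0%. DTX3L had 22.55, 21.52, 23.68 and 22.42 TPM with vehicle and 23.58, 22.90, 23.60 and 21.25 TPM with LLY-283. These values interleaved, and the log2 fold change was 0.018 (95% interval -0.090 to 0.13, adjusted p = 0.814), or 0.052 without LLY-283 replicate 4. The log2 ratio of PARP9 to DTX3L was 0.93 ± 0.0505 with vehicle and 0.57 ± 0.0764 with LLY-283 (SD, n = 4 each). The difference was -0.36, without overlap between the groups. Whether reads were counted by strand is not stated, so reads from the shared 240 bases could be assigned to either gene.

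ISG15 (ENSG00000187608, chromosome 1, 1001138 to 1014540) encodes a ubiquitin-like protein, and USP18 the protease that removes it from its targets and also dampens receptor signalling. ISG15 had 80.34, 85.27, 81.85 and 86.15 TPM with vehicle and 77.16, 75.80, 78.26 and 88.05 TPM with LLY-283. Replicate 4 with LLY-283 was the highest of all 8 libraries and the other 3 were the lowest. The log2 fold change was -0.065 (adjusted p = 0.363), and without that library it was -0.11 (adjusted p = 0.0285). USP18 (chromosome 22, 18150118 to 18177397) ranged from 16.73 to 17.93 TPM with vehicle and from 14.91 to 16.96 TPM with LLY-283, with a log2 fold change of -0.12 (adjusted p = 0.103), which was -0.15 without LLY-283 replicate 4 (adjusted p = 0.0339).

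Of the other 8 interferon-induced genes, 7 were tested and 5 fell, where 17.6% of all genes tested fell. Among them, the calls of MX1 and BST2 were lost under 18 and 10 of the 21 fits, and the roles were not compared by a test. IFI44L and IFI44, related genes 3650 bases apart on the same strand of chromosome 1, both fell. IFI44L (ENSG00000137959, 78619902 to 78646145) had 15.51, 13.17, 15.19 and 13.98 TPM with vehicle and 10.20, 8.90, 9.37 and 10.56 TPM with LLY-283. The groups did not overlap, and IFI44L fell by 0.56 on the log2 scale (standard error 0.074, adjusted p = 0.000755), or by 32.3%. IFI44 (ENSG00000137965, 78649796 to 78664078) had 87.58, 88.87, 81.65 and 88.98 TPM with vehicle and 74.95, 70.80, 77.78 and 65.54 TPM with LLY-283. It fell by 0.27 (standard error 0.054, adjusted p = 0.00688), also without overlap. The log2 ratio of IFI44L to IFI44 was -2.58 ± 0.151 with vehicle and -2.88 ± 0.184 with LLY-283 (SD, n = 4 each), a difference of -0.30 with overlap between the groups.

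IFI35 (ENSG00000068079, chromosome 17, 43006740 to 43014456) encodes a partner of NMI, and no annotated gene overlaps it. It had 21.60, 22.15, 20.51 and 22.68 TPM with vehicle and 13.89, 14.87, 13.88 and 16.60 TPM with LLY-283. All LLY-283 libraries lay well below the vehicle libraries. IFI35 fell by 0.55 on the log2 scale (standard error 0.064, adjusted p = 0.000429), or by 31.9%, and omitting single libraries gave log2 fold changes of -0.61 to -0.52. Its RefSeq window did not hold the ISRE letters, nor did those of TREX1, MAVS and SAMHD1.

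MX1 (ENSG00000157601, chromosome 21, 41420020 to 41470071), a GTPase that blocks RNA viruses, had 5.64, 5.58, 5.93 and 5.50 TPM with vehicle and 4.96, 4.39, 5.27 and 4.07 TPM with LLY-283. The groups did not overlap, and MX1 fell by 0.28 (standard error 0.091, adjusted p = 0.0491). The call was lost on leaving out any library except LLY-283 replicate 3, and adjusted p-values over all alternatives ran from 0.0313 to 0.253, with a log2 fold change of -0.13 under quantile normalization. BST2 (ENSG00000130303, chromosome 19, 17402939 to 17405630), or tetherin, which holds budding viruses at the cell surface, had the highest level of the members. It had 252.82, 251.84, 240.75 and 257.08 TPM with vehicle and 227.83, 219.33, 214.55 and 247.99 TPM with LLY-283. LLY-283 replicate 4 lay within the vehicle range and the other 3 below it. BST2 fell by 0.14 (standard error 0.045, adjusted p = 0.0444), and by 0.18 without LLY-283 replicate 4 (adjusted p = 0.00336). The call was lost when any of the 4 vehicle libraries or LLY-283 replicates 1, 2 or 3 were left out, with adjusted p-values over all alternatives of up to 0.202.

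**Figure D5:**
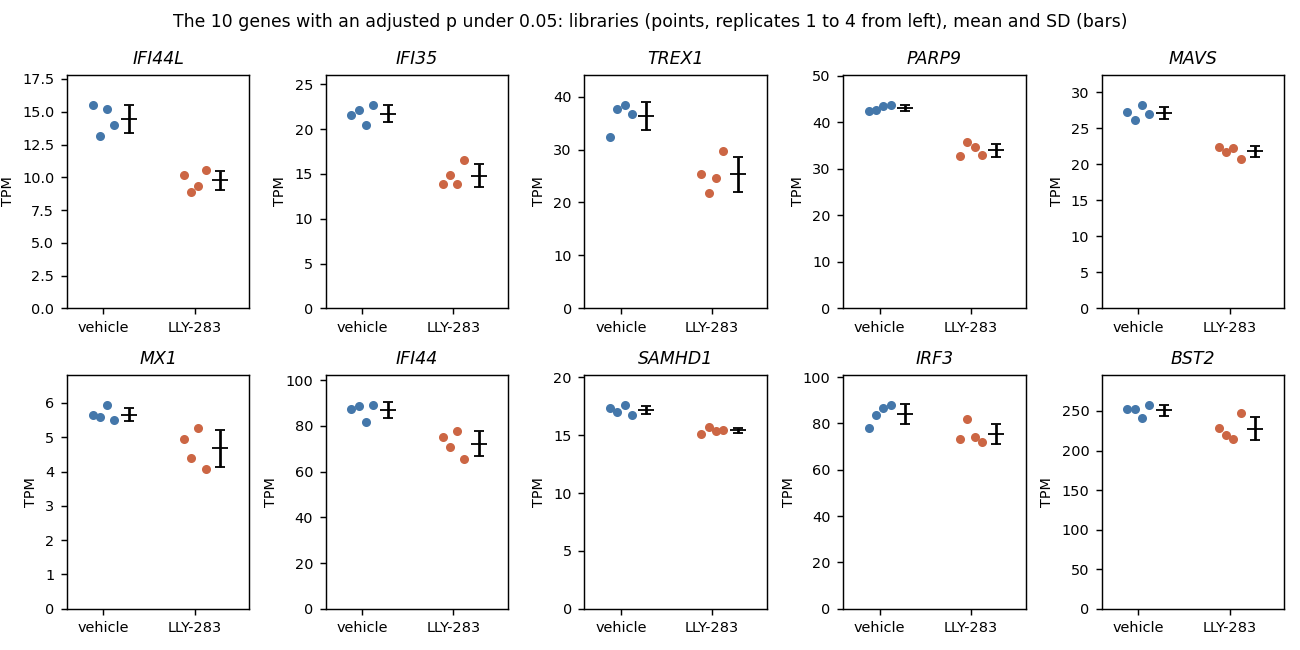
TPM of the 10 genes with an adjusted p under 0.05, with replicates 1 to 4 of each group as points from left to right and the mean and SD (n = 4) as bars; axes start at 0. The groups are separate for 8 of the genes, while IRF3 and BST2 each have 1 LLY-283 library inside the vehicle range.

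IFI6 (chromosome 1, 27666064 to 27672212), a mitochondrial protein that counters cell death, ranged from 64.04 to 74.14 TPM with vehicle and from 51.75 to 65.33 TPM with LLY-283 (log2 fold change -0.21, adjusted p = 0.0621), and it passed without LLY-283 replicate 4 (log2 fold change -0.25, adjusted p = 0.0439), with mitochondrial genes left out and in the fit with the replicate block (adjusted p = 0.0119). IFI27 (chromosome 14, 94104836 to 94116695) had 13.95, 14.38, 13.79 and 17.41 TPM with vehicle and 13.52, 15.03, 13.36 and 8.17 TPM with LLY-283. The fitted change of -0.28 (adjusted p = 0.265) was -0.086 without LLY-283 replicate 4 (adjusted p = 0.514). XAF1, which promotes apoptosis, was listed at 0.22 TPM or less in all libraries and was not tested.

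The rest of the pathway was followed in a list of 56 other genes, of which 50 were tested. Of these, 11 fell (22.0%, where 17.6% of all genes fell) and 3 rose (6%, where 8.61% rose), with a median log2 fold change of -0.074. After quantile normalization 5 fell and 5 rose, with a median of 0.017, and with median-of-ratios scaling 8 fell and 5 rose. The sensors DDX58 (RIG-I) and DHX58 (LGP2) fell by 0.28 and 0.38 on the log2 scale (adjusted p = 0.0261 and 0.0119), alongside MAVS above. DDX58 went from 6.77 ± 0.357 to 5.56 ± 0.445 TPM and DHX58 from 7.67 ± 0.529 to 5.86 ± 0.601 TPM (SD, n = 4 each). The call of DDX58 was lost under quantile normalization (adjusted p = 0.185), with no filter on low values and without vehicle replicate 1, 2 or 3 or LLY-283 replicate 2. RNASEH2A and RNASEH2C, subunits of the ribonuclease that removes RNA from DNA, fell by 0.32 and 0.22 (adjusted p = 0.00150 and 0.0138), while RNASEH2B was higher by 0.12 without passing (adjusted p = 0.188). The other genes that fell were IRF2, HERC6, TRIM5, PLSCR1, NMI, IL10RB and MYD88, with log2 fold changes from -0.41 (HERC6) to -0.10 (MYD88). Of the 14 calls in either direction, 7 held under every alternative fit (IRF2, DHX58, RNASEH2A, TRIM5, PLSCR1, GBP1 and SP100). Those of MYD88, IL10RB and NMI were lost under 15, 12 and 9 of 21 fits. The calls of HERC6 and RNASEH2C were lost after quantile normalization only, although HERC6 was tested in 20 of these fits, being under the 5 TPM filter. Omitting any library but vehicle replicate 2 ended the call of MYD88 (adjusted p up to 0.197 over all fits), and any but vehicle replicate 3 or LLY-283 replicate 4 that of IL10RB (up to 0.200). NMI, the partner of IFI35, went from 25.7 ± 1.02 to 22.8 ± 1.36 TPM (SD, n = 4 each), with adjusted p-values of 0.0175 to 0.122 over those fits, and its call was lost with both rescalings and without vehicle replicate 1, 3 or 4 or LLY-283 replicate 2 or 3.

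The 3 genes that rose were GBP1, a GTPase induced by interferon, and SP100 and PML, which encode proteins of the PML nuclear bodies. GBP1 had 13.16, 12.85, 12.39 and 12.87 TPM with vehicle and 17.06, 15.09, 15.40 and 16.59 TPM with LLY-283, a log2 fold change of 0.32 (adjusted p = 0.00226). The groups of GBP1, SP100 and PML did not overlap, and the changes of SP100 and PML were 0.23 (adjusted p = 0.0144) and 0.16 (adjusted p = 0.0228). The call of PML was lost without vehicle replicate 1 or 4 or LLY-283 replicate 1, with adjusted p-values of up to 0.0612. The interferon genes IFNA1, IFNG and IFNL1 were listed at 0 in all 8 libraries, IFNB1 at 0.05 TPM in 2 vehicle libraries and at 0 in the rest, and IFNE at 0.19 to 0.65 TPM. These 5 interferon genes stayed under 1 TPM in all libraries, while the induced genes ISG15, IFI44, BST2 and IFITM3 were above 50 TPM in all of them. Only 6 of the 37 members had a vehicle mean above 50 TPM. Other induced genes were low, among them MX1, IFIT1 and OAS2 with vehicle means of 5.66, 5.24 and 0.55 TPM. In all, 5 members had a mean under 1 TPM over the 8 libraries.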

How the data were processed

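Poly(A)-captured RNAseq was performed on U251 cells (4 vehicle and 4 LLY-283 libraries). The authors trimmed reads with Cutadapt 1.18, mapped them to GRCh38 with STAR, estimated genes with RSEM and deposited TPM values rounded to 2 decimals; the labels give STAR 2.7.0f and RSEM 1.3.1, and the methods name other versions of both. TPM removes depth and transcript length but not library composition, and strandedness is not stated. Here log2(TPM + 0.1) was taken for the 14478 genes averaging 1 TPM or more and fitted with limma 3.58.1 (R 4.3.3, eBayes with trend, no replicate block), with Benjamini-Hochberg adjustment over all genes. A call required an adjusted p under 0.05. Fold changes on this scale understate those of low genes. Positions and overlaps came from GENCODE release 44 (GRCh38), matched by identifier, and promoters from RefSeq (GRCh38.p14). Values per library are given for members with a call and, whatever their p, for IFNAR1, STAT2, IRF9, CGAS, STING1, IFIH1, ISG15, IFIT1, OAS1 and IFITM3; TBK1, DTX3L, IFI27 and GBP1 were given the same way, and RNASEH2B and the neighbouring genes named, after their values were seen. The fit was tested on simulated data, with no outcome of that given here. The members and lists were chosen with earlier results of these data known. The alternatives were other pseudocounts (0.5, 1), filters, scalings, eBayes forms, a replicate block, each library left out and, added after seeing the data, removal of GC content and length trends and of mitochondrial genes (21 fits in all), and separately a 1.5-fold threshold. Splicing was not analysed here, and 1 gene of the pathway list is not reported here.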

Additional observations from a re-analysis of the deposited data

Results flagged for a closer look

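In 73 groups of 4 values with any spread, taken over the 37 genes, 5 held a library whose gap to its nearest neighbour was a larger share of the group's range than the 95% critical value of Dixon's test; chance gives about 1 in 20 groups. IRF7 was at 0.05 TPM in LLY-283 replicate 4 and at 0 in the other 3. IFITM3 was at 179.53 TPM in vehicle replicate 1, below the other vehicle libraries. OASL was at 3.99 TPM and STING1 at 17.13 TPM in the same library, each the lowest vehicle value. IFI27 was at 17.41 TPM in vehicle replicate 4, above the other vehicle libraries.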

How the results depend on the processing

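Over 21 alternative fits, the 1.5-fold threshold not among them, 6 of the 10 members called kept their call throughout. Leaving out each library in turn gave 7 to 11 members lower and 0 to 1 higher, a member median of -0.14 to -0.12, 7 to 10 other pathway genes lower and 2 to 4 higher, and 1889 to 2659 of all genes lower and 888 to 1508 higher. Median-of-ratios scaling gave 6 members lower and 1 higher (median -0.0949) and 5 other pathway genes higher (median -0.029). Of all genes, 1866 were lower and 1927 higher under it, against 2541 and 1247. Quantile normalization gave 8 members lower and 0 higher (median -0.074), and 5 other pathway genes lower and 5 higher (median 0.017). Of all genes, 1820 were lower and 1871 higher under it, so that the split of all calls depends on scaling. Without a filter, 7 other pathway genes fell. With all 8 libraries and a 1.5-fold threshold, 0 members and 0 other pathway genes remained in either direction, against 504 genes lower and 57 higher over all. Of the members, IFI35, IFI44L and TREX1 passed it without LLY-283 replicate 4. IFI44L also passed it without vehicle replicate 2 or LLY-283 replicate 1.

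The sign turned under quantile normalization for ISG20 (0.070), IFIT1 (0.099), IFIT5 (0.028), OASL (0.11) and IFNAR1 (0.0027), with median-of-ratios scaling for IFIT5 (0.0035) and IFNAR1 (0.0056), and with GC content and length trends removed for IFIT2 (-0.00458 with and without the block). With single libraries left out, log2 fold changes ran from -0.20 to 0.035 for ISG20, -0.10 to 0.020 for IFIT1, -0.039 to 0.069 for IFIT2, -0.069 to 0.014 for IFIT5, -0.064 to 0.15 for IFITM2 and -0.0040 to 0.052 for DTX3L. None of these genes was called; the causes were not tested.

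The replicate numbers did not pair the libraries: deviations of same-numbered libraries correlated at -0.085 to 0.032, and 0 of 8 libraries correlated best with its own number. The replicate block gave 9 members lower and 0 higher, with IFI6 gained and IRF3 and MX1 lost, beside 2201 and 1095 of all genes. With GC content and length trends removed as well, 9 members were lower and 1 higher (IRF9), beside 2287 and 1093 of all genes. Removing those trends alone gave 13 members lower, with IFIH1, OAS3 and STAT2 gained, beside 2733 of all genes lower and 1287 higher. TPM keeps no depth, so precision at low values, such as those of CGAS, IRF7 and XAF1, is unknown. With a filter of 0.5 TPM, OAS1 had a log2 fold change of -0.29 (adjusted p = 0.376).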

Other observations

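BISPR, a long noncoding gene that starts beside BST2 on the opposite strand, was named after its values were seen. It had 10.26, 9.03, 8.74 and 9.42 TPM with vehicle and 5.94, 6.71, 5.81 and 5.17 TPM with LLY-283. BISPR fell by 0.66 on the log2 scale (adjusted p = 0.000802), where BST2 fell by 0.14.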
